A study of Mus musculus with 42 samples.

Results

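The genes described here are Il13ra1, Atp11a, Slc41a2, Tmem176a, Tmem176b, Dnajc12 and Steap2, which are 7 of the 43629 genes counted in kidney and liver of mice given 1 of several compounds. They were selected on a measured value, the difference between liver and kidney in the response to AS-703026, and all 7 stood higher with AS-703026 in liver than with enzastaurin or GDC-0941. In a fit of the 24 libraries of these 3 compounds in both tissues they held ranks 1 to 7 by p, and the gene at rank 8 was Gm7694 with a log2 difference of 2.65 ± 0.42 (SE). The member at rank 7, just inside, was Tmem176b with 1.48 ± 0.23. Because these values chose the genes, the liver levels, the kidney levels with AS-703026 and the difference between tissues are given as a description without a test.

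The 42 libraries were made by CEL-seq, in which only the 3' end of each polyadenylated transcript is read, from male mice of the genetically mixed UM-HET3 stock. The mice were 4 months old after 1 month on the same base diet, either plain (control, 6 kidney libraries) or with 1 compound (4 kidney libraries for each of 6 compounds). The compounds were AS-703026 at 30 ppm, an inhibitor of the kinase MEK; enzastaurin at 75 ppm, an inhibitor of protein kinase C beta; GDC-0941 at 50 ppm, a PI3-kinase inhibitor; AZD8055 at 20 ppm and KU0063794 at 10 ppm, both inhibitors of the kinase mTOR; and ascorbyl-palmitate at 6.3 ppm, a fat-soluble ester of vitamin C. The 12 liver libraries cover GDC-0941, enzastaurin and AS-703026 alone, 4 for each. Liver of control mice was not analysed here, so a liver difference is always between AS-703026 and the other compounds, and which of them departed from an untreated liver cannot be told apart.

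The median library held 2248550 counts in kidney (lowest 863605, highest 5691067) and 2792767 in liver (1084591 to 4361115). Levels are counts relative to a library's total (CPM), scaled by TMM within each tissue. Summed hepatocyte markers lay at 82896 CPM or more in every liver library and at 4847 or less in kidney, and summed proximal tubule markers at 3.30 or less in liver and at 11699 or more in kidney. AZD8055 replicate 4 in kidney stood apart: its proximal tubule sum was that lowest value, against 33772 CPM or more in every other kidney library, and its adipocyte marker sum was 37528 CPM against 1077 to 1894 in the other 3 AZD8055 libraries. In these bulk tissues, fewer cells of a type and less RNA per cell cannot be told apart.

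The 7 genes do not form one pathway. Il13ra1 encodes a subunit of the receptor for interleukin-13, which pairs with the interleukin-4 receptor alpha chain and signals through JAK kinases to the transcription factor STAT6. Atp11a encodes a flippase of the P4-ATPase family, which moves phospholipids to the inner leaflet of the plasma membrane. Slc41a2 encodes a magnesium transporter, and Steap2 a metalloreductase that reduces iron and copper before uptake. Tmem176a and Tmem176b encode membrane proteins related to the CD20 family, best known from dendritic cells and macrophages. Dnajc12 encodes a co-chaperone of the aromatic amino acid hydroxylases.

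In GENCODE M21 (GRCm38) the genes are protein-coding and lie on 5 chromosomes, with the Tmem176 genes side by side. Il13ra1 (ENSMUSG00000017057) spans 36112110 to 36171259 on the plus strand of chromosome X, and Atp11a (ENSMUSG00000031441) spans 12757014 to 12868728 on the plus strand of chromosome 8. Slc41a2 (ENSMUSG00000034591) spans 83230848 to 83337882 on the minus strand and Dnajc12 (ENSMUSG00000036764) spans 63382443 to 63410576 on the plus strand of chromosome 10. Steap2 (ENSMUSG00000015653) spans 5664829 to 5694578 on the minus strand of chromosome 5. Atp11a overlaps the antisense models Gm15350 and Gm15347, and Slc41a2 overlaps Gm47170 on the other strand. The strand setting of the counting is not given in the sources used here, so the values of these genes may hold reads of their overlapping partners.

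Tmem176a (ENSMUSG00000023367) spans 48840919 to 48847071 on the plus strand of chromosome 6, and Tmem176b (ENSMUSG00000029810) spans 48833818 to 48841496 on the minus strand. They share 578 bases, 48840919 to 48841496, at the 5' end of both genes, whereas CEL-seq reads come from 3' ends, which lie at opposite sides of the locus. The stretch below is shown because it holds a start site of each gene, pointing away from each other. It is printed on the plus strand, from RefSeq promoter windows of GRCm38.p6, chr6:48841325-48841532, and capitals mark the 108 bases between the Tmem176b start at 48841374 and the Tmem176a start at 48841483.
Tmem176a and Tmem176b: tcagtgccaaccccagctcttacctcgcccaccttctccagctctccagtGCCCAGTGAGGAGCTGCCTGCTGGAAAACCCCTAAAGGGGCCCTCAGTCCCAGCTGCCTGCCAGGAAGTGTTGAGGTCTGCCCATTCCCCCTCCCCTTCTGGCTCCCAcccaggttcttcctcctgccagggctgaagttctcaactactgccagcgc

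RefSeq promoter windows, 250 bases before to 50 after a start, were found for 6 of the 7 genes and number 11. They were searched on both strands for TTCNNNGAA, the STAT pattern, for the STAT6 pattern with 1 more base between its arms, for TTGCNNAA, the C/EBP pattern, for CCGGAAGT, the ETS pattern, and for TGANTCA, the AP-1 pattern. Of these, 1 match was found, TTCGTGGAA of the STAT pattern, 135 bases before a start in 1 of the 3 Steap2 windows. Among 32851 windows of the same length, 8.3% held the STAT pattern, 6.95% the STAT6 pattern, 10.8% the C/EBP pattern, 3.89% the ETS pattern and 7.81% the AP-1 pattern, and 1 STAT match in 11 windows is near that background.

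In liver, every member was higher with AS-703026 than with either other compound in the fitted model, by 2.59-fold to 8.15-fold against enzastaurin and by 2.38-fold to 9.18-fold against GDC-0941. In all 6 members other than Dnajc12 each AS-703026 library lay above all 8 libraries of enzastaurin and GDC-0941, and for Dnajc12 3 of 4 did. Of the 9490 genes tested in liver, 1.97% had every AS-703026 library above all 8 others, 2.91% were called higher and 4.69% called in either direction (edgeR's quasi-likelihood test, adjusted p below 0.05). The 7 genes were chosen for this response, so nothing is read from their share. The call counts rest on few libraries: 445 genes in either direction became 256 without AS-703026 replicate 1 and 224 without replicate 3.

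Il13ra1 stood at 62.1, 36.1, 47.9 and 48.7 CPM in AS-703026 liver, at 23.5, 20.4, 18.1 and 15.7 with enzastaurin and at 23.4, 19.3, 24.1 and 17.1 with GDC-0941. The lowest AS-703026 library was above the highest of the others. The group mean of 48.7 ± 10.6 CPM (SD, n = 4) with AS-703026 lay against 19.4 ± 3.29 with enzastaurin and 20.97 ± 3.38 with GDC-0941 (n = 4 each). The log2 difference from the mean of both was 1.31 ± 0.15 (SE), the smallest of the 7.

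Atp11a stood at 93.8, 34.4, 65.1 and 48.4 CPM in AS-703026 liver, at 25.1, 12.1, 14.4 and 12.1 with enzastaurin and at 11.1, 15.4, 12.4 and 16.0 with GDC-0941. The groups did not overlap, although AS-703026 replicate 2 was nearer to enzastaurin replicate 1 than to AS-703026 replicate 1. The log2 difference was 2.10 ± 0.23. Slc41a2 stood at 171, 81.1, 151 and 108 CPM with AS-703026, at 45.8, 38.2, 40.0 and 34.2 with enzastaurin and at 23.8, 31.1, 21.9 and 28.3 with GDC-0941. Here the 3 compounds formed separate levels, since each enzastaurin library was also above each GDC-0941 library. That step, 0.58 ± 0.21 on the log2 scale, was the only one between enzastaurin and GDC-0941 in liver without overlap among the 7 genes, and 2.36% of the genes tested in liver showed every enzastaurin library above every GDC-0941 library. The log2 difference of AS-703026 from the mean of both was 2.02 ± 0.16.

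Steap2 had the fewest counts of the members in liver. It stood at 9.85, 12.3, 10.6 and 15.7 CPM with AS-703026, from 14 to 46 counts per library, at 3.20, 5.93, 2.88 and 2.12 CPM with enzastaurin and at 3.18, 4.40, 3.49 and 1.45 with GDC-0941, from 4 to 25 counts. The groups did not overlap, but counting error is large at this depth. The log2 difference was 1.82 ± 0.28.

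The Tmem176 genes had the most counts of the members in liver. Tmem176a stood at 1085, 559, 1057 and 701 CPM with AS-703026, at 249, 346, 233 and 264 with enzastaurin and at 260.3, 285, 264 and 249 with GDC-0941. Tmem176b stood at 1615, 807, 1365 and 926 CPM with AS-703026, at 463, 433, 383 and 398 with enzastaurin and at 419, 402, 380.2 and 375 with GDC-0941. In both genes replicates 1 and 3 of AS-703026 were high and replicates 2 and 4 lower, and no library overlapped with the other compounds. The log2 differences were 1.68 ± 0.15 for Tmem176a and 1.55 ± 0.15 for Tmem176b.

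Dnajc12 had the largest difference and the widest spread. It stood at 346, 30.0, 338 and 117 CPM in AS-703026 liver, at 16.0, 30.4, 25.5 and 30.3 with enzastaurin and at 26.2, 17.3, 28.2 and 21.1 with GDC-0941. AS-703026 replicate 2 lay within the enzastaurin range, and the other 3 were above every library of the other compounds. The group mean was 208 ± 159 CPM (SD, n = 4), and the log2 difference was 3.11 ± 0.40, or 3.45 without replicate 2.

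**Figure D1:**
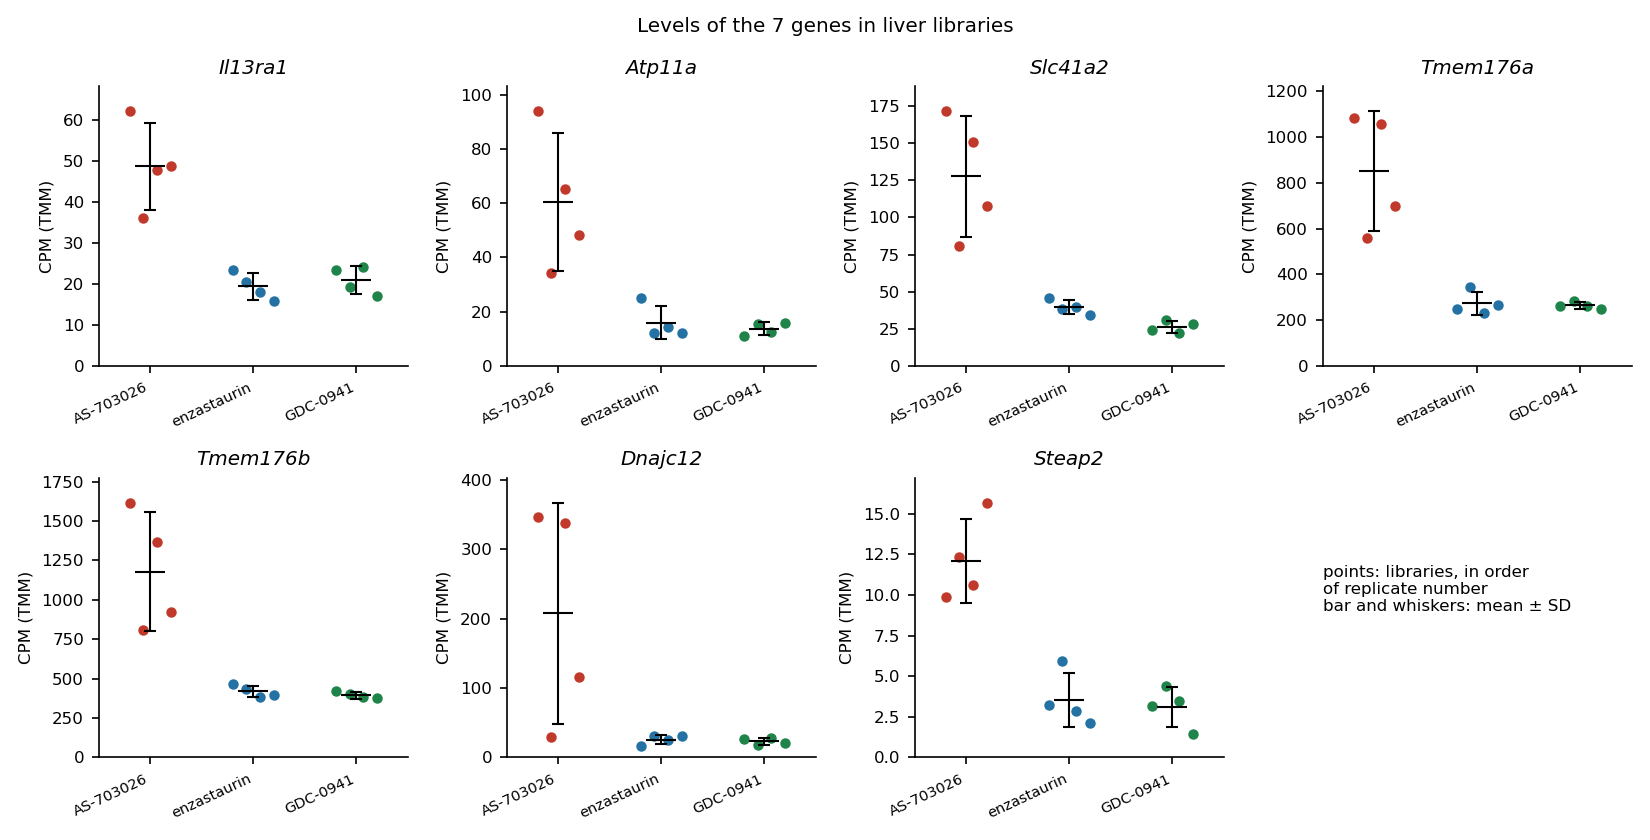
CPM (TMM within liver) of each of the 7 genes on the vertical axis, by compound, with 1 point per library in order of replicate number and the mean ± SD. Each AS-703026 point is above all others except Dnajc12 replicate 2 at 30.0 CPM, and Slc41a2 alone has enzastaurin points all above those of GDC-0941.

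The members shared an order of libraries inside the AS-703026 liver group. Replicate 2 was the lowest of the 4 in 6 of the 7 genes and replicate 1 the highest in 6. Steap2 was the exception, with replicate 1 lowest at 9.85 CPM and replicate 4 highest at 15.7. Replicate 2 also had the fewest counts of all liver libraries, 1084591 against 2486098 or more in the rest of its group. How many of all genes have this order was not counted, so it only describes the members. Over the 12 liver libraries the Pearson correlation of log2 CPM between pairs of members ran from 0.686 (Dnajc12 and Steap2) to 0.985 (Tmem176a and Tmem176b). These correlations hold the difference between compounds that chose the genes, and the points share their libraries.

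The genes most like the members over the 12 liver libraries were mostly acute-phase genes of hepatocytes, named by a rule that takes the 2 highest Pearson correlations of log2 CPM among 8305 other genes. For Il13ra1 the most alike was Lrg1 (r = 0.961), a secreted acute-phase glycoprotein. For Atp11a they were Il1r1 (0.988), the interleukin-1 receptor, and Lrg1 (0.980). For Slc41a2 they were Fga (0.976), the fibrinogen alpha chain, and Fgl1 (0.972), a fibrinogen-like protein. For Tmem176a they were Saa1 and Itih4 (both 0.971), and for Tmem176b Apcs (0.987), serum amyloid P, and Saa1 (0.986). For Dnajc12 they were Saa2 (0.976) and Orm2 (0.972), serum amyloid A and an orosomucoid. Steap2 differed, with Myh9 (0.914), non-muscle myosin, as the most alike.

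Several of these genes spanned a far wider range than the members. Saa2 ran from 125 to 26088 CPM in the 4 AS-703026 liver libraries, against 23.8 to 39.1 in the other 8. Fgl1 ran from 1345 to 4379 CPM, against 82.2 to 232. Il1r1 ran from 28.2 to 92.5 CPM, against 7.95 to 23.99. These genes were picked for their likeness, so their differences are given as levels alone.

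In kidney the members did not stand apart from control as a group. Against control the log2 differences with AS-703026 ran from -0.79 for Il13ra1 to 0.33 for Tmem176b, and 4 of the 7 were below 0. Across the 11719 genes tested in kidney, 0.922% were called in either direction and 1.91% had every AS-703026 library below every control. The median log2 difference over all these genes was 0.02.

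Il13ra1, the receptor subunit, was lower in kidney. It stood at 33.4, 27.2, 24.6 and 21.6 CPM in AS-703026 kidney, and in the 6 controls at 35.1 to 58.9 with a median of 44.0. Every AS-703026 library was below every control, and the log2 difference was -0.79 ± 0.23 (SE), between -0.90 and -0.69 when single libraries were left out. A response in liver alone, under which these genes were grouped, does not describe the levels of Il13ra1. Enzastaurin kidney held 41.0 to 64.7 CPM and GDC-0941 kidney 33.0 to 47.2.

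Atp11a, far more abundant in kidney than in liver, stood at 1003, 894, 1292 and 1368 CPM with AS-703026, and in the controls at 1176 to 2467 with a median of 1753. The ranges overlapped, since 3 controls lay at 1176 to 1304 CPM and 3 at 2201 to 2467. The log2 difference was -0.63 ± 0.23. Steap2 stood at 191, 171, 193 and 127 CPM against 173 to 260.1 in control, with a log2 difference of -0.36 ± 0.22.

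The ranges of the other 4 genes also overlapped with control in AS-703026 kidney. Slc41a2 stood at 25.6, 24.1, 32.2 and 50.2 CPM against 22.7 to 51.0, a log2 difference of -0.09 ± 0.24. Tmem176a stood at 714, 559.8, 747 and 634 CPM against 543 to 693, a difference of 0.15 ± 0.21. Tmem176b stood at 1645, 1579.9, 1781 and 1293 CPM against 1002 to 1565, a difference of 0.33 ± 0.21. All its libraries but the one at 1293 CPM lay above the control range. Dnajc12 stood at 252, 325, 408 and 266 CPM against 215 to 358, a difference of 0.10 ± 0.24. These intervals do not show that the levels were equal.

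Summed markers of the distal nephron and collecting duct stood at 3362 to 4002 CPM in AS-703026 kidney and at 2121 to 2591 in control. Other compounds also had high libraries, at 2414 to 5792 with ascorbyl-palmitate and 2543 to 3320.5 with enzastaurin. GDC-0941 held 1732 to 3820, KU0063794 1730 to 3498 and AZD8055 987 to 2839. With AS-703026 2 of 9 were called higher, against 0.452% of all genes. That comparison had no gene called without control 4, control 5 or AS-703026 replicate 4. Summed proximal tubule markers overlapped, at 33772 to 48304 CPM against 39101 to 51365, with 0 of 8 called. The satellite-like share described with the liver results ran from 0.287% to 29.0% of counts in AS-703026 kidney and from 0.0555% to 12.5% in control. Over all 18 alternatives, that share as a covariate among them, the log2 difference stayed between -0.90 and -0.69 for Il13ra1 and between -0.73 and -0.51 for Atp11a. The part of the nephron segments in these values was not tested.

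**Figure D2:**
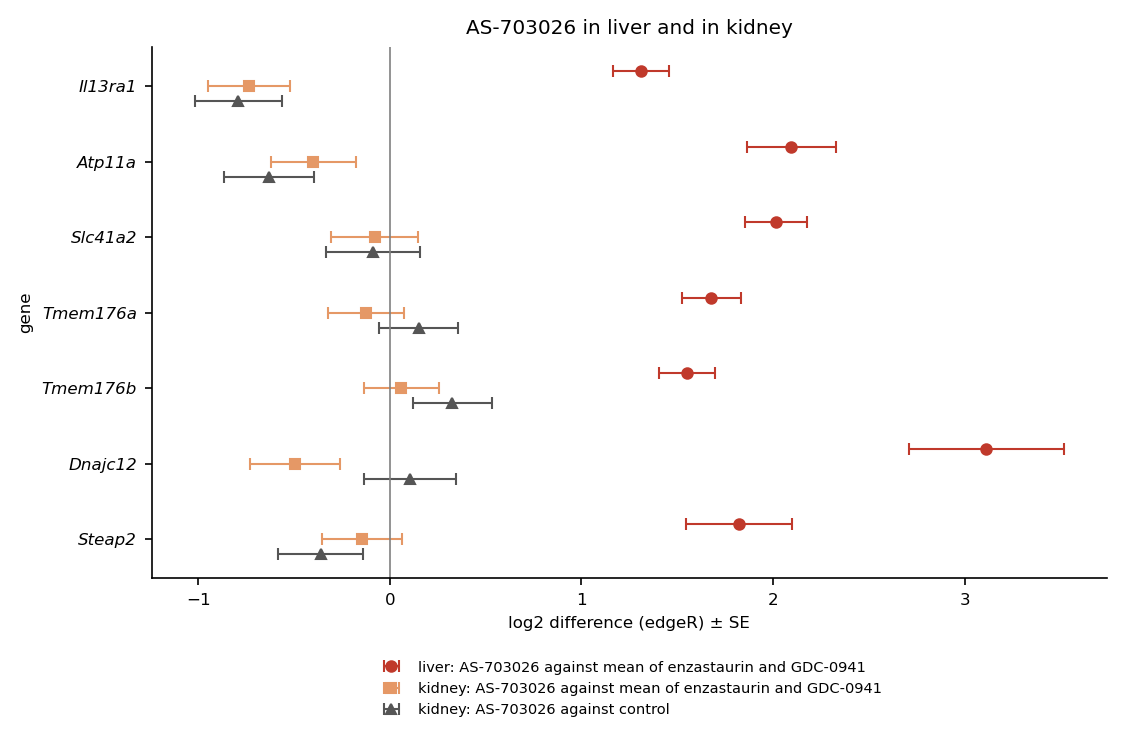
Fitted log2 differences (horizontal axis) ± SE of each gene for AS-703026 against the mean of enzastaurin and GDC-0941 in liver and in kidney, and against control in kidney. Liver values run from 1.31 to 3.11, and kidney values from -0.79 to 0.33.

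The difference between tissues, AS-703026 against the mean of enzastaurin and GDC-0941 in liver minus the same in kidney, was 2.03 ± 0.23 for Il13ra1, 2.47 ± 0.31 for Atp11a and 2.07 ± 0.28 for Slc41a2. It was 1.79 ± 0.24 for Tmem176a, 1.48 ± 0.23 for Tmem176b, 3.60 ± 0.51 for Dnajc12 and 1.95 ± 0.29 for Steap2. For Slc41a2, Tmem176a and Tmem176b the kidney part of it was between -0.13 and 0.06. For Il13ra1 and Dnajc12 the kidney part was larger, -0.73 ± 0.21 and -0.49 ± 0.23. In Dnajc12 the kidney level with AS-703026 was near control (0.10), and those with enzastaurin and GDC-0941 were above it (0.38 and 0.81). Of the 12262 genes in this fit, 0.228% were called higher and 0.432% in either direction, and the members are among the former by construction.

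The tissues differed in the levels of most members. With enzastaurin and GDC-0941, every liver library was below every kidney library for Atp11a, Tmem176a, Tmem176b, Dnajc12 and Steap2, whether libraries were scaled within each tissue or together. Slc41a2 with GDC-0941 overlapped between the tissues on both scales, and Il13ra1 with GDC-0941 on the joint scale. Atp11a with enzastaurin stood at 12.1 to 25.1 CPM in liver and 1506 to 1819.9 in kidney, and Steap2 at 2.12 to 5.93 against 183 to 222. With AS-703026, Il13ra1 and Slc41a2 were above kidney in every liver library, whereas Atp11a and Steap2 remained below it, on both scales. Tmem176a with AS-703026 overlapped between the tissues when each was scaled alone and was higher in liver on the joint scale. How many of all genes separate the tissues in this way was not counted, so these levels only describe the members.

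Enzastaurin and GDC-0941 kidney are described without a test, since the choice of genes used them. Against control the log2 differences ran from -0.16 to 0.38 with enzastaurin, and all 7 genes overlapped with control. With GDC-0941 they ran from -0.32 to 0.81. Dnajc12 stood at 512, 542, 465 and 584 CPM with GDC-0941 and Tmem176a at 726, 722, 755 and 851, each library above every control. Of all kidney genes tested, 1.36% had every GDC-0941 library above every control.

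The kidneys of mice given ascorbyl-palmitate, AZD8055 or KU0063794 took no part in choosing the genes, so the members were tested there, and none of the 7 passed in any of these 3 comparisons (edgeR's quasi-likelihood test, Benjamini-Hochberg adjusted over 11719 genes). The share of all genes called was 0.0427% for ascorbyl-palmitate, 5.46% for AZD8055 and 0.0427% for KU0063794, in either direction. All comparisons with control use the same 6 control libraries.

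Dnajc12, the co-chaperone of aromatic amino acid hydroxylases, was nearest to a difference with ascorbyl-palmitate. It stood at 548, 487, 457 and 506 CPM against 215 to 358 in the 6 controls (median 309), so every library was above every control. The log2 difference was 0.71 ± 0.24 (SE) with an edgeR adjusted p of 0.180. It passed 0.05 with limma voom and sample weights (adjusted p = 0.0253) and in edgeR without AZD8055 replicate 4, which shares the fit (log2 difference 0.74, adjusted p = 0.0418), in a range of 0.0253 to 0.489 over 18 alternatives. Of all genes tested, 1.41% had every ascorbyl-palmitate library above every control.

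With KU0063794 Dnajc12 stood at 364, 389.9, 496 and 485 CPM, again all above control, as for 1.21% of the genes tested. Its log2 difference was 0.52 ± 0.24 with an edgeR adjusted p of 0.472. With AZD8055 it stood at 479, 458, 389 and 99.3 CPM, the last in replicate 4, with a log2 difference of 0.28 ± 0.24 (edgeR adjusted p = 0.591) that was 0.57 without that library (adjusted p = 0.110).

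Atp11a, the flippase, stood at 1297, 1369, 1326 and 514 CPM with AZD8055, with a log2 difference of -0.66 ± 0.23 and an edgeR adjusted p of 0.0952. Without replicate 4 the difference was -0.44 (adjusted p = 0.371), and without control 2 it passed (-0.77, adjusted p = 0.0454). With KU0063794 it stood at 1053, 1349, 1190.4 and 1180.5 CPM, a difference of -0.62 ± 0.23 (edgeR adjusted p = 0.360). With ascorbyl-palmitate it stood at 1730.5, 1302, 1745 and 1275 CPM, a difference of -0.29 ± 0.23 (edgeR adjusted p = 0.669). All 3 groups overlapped with the wide control range of 1176 to 2467 CPM.

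Steap2 and Slc41a2 each had 1 lower group that did not pass. Steap2 with AZD8055 stood at 193, 158, 216 and 48.5 CPM, a log2 difference of -0.52 ± 0.22 (edgeR adjusted p = 0.177) that was -0.24 without replicate 4. Slc41a2 with KU0063794 stood at 23.0, 24.3, 22.8 and 34.2 CPM against 22.7 to 51.0 in control, a difference of -0.50 ± 0.25 (edgeR adjusted p = 0.515). The AZD8055 value of Slc41a2, -0.32 ± 0.25, became -0.07 without replicate 4.

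Il13ra1, Tmem176a and Tmem176b had the other values. Il13ra1 ranged from -0.33 ± 0.22 with AZD8055 to 0.07 ± 0.21 with KU0063794 on the log2 scale. The AZD8055 value of Il13ra1 became -0.09 without replicate 4. Tmem176a ranged from 0.08 ± 0.21 (AZD8055) to 0.21 ± 0.21 (ascorbyl-palmitate), and Tmem176b from 0.17 ± 0.21 (AZD8055) to 0.27 ± 0.21 (KU0063794). Without replicate 4 the AZD8055 values were the highest of each range, 0.36 for Tmem176a (edgeR adjusted p = 0.244) and 0.43 for Tmem176b (adjusted p = 0.198). With all libraries the lowest edgeR adjusted p of these 9 values was 0.430, for Il13ra1 with AZD8055.

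**Figure D3:**
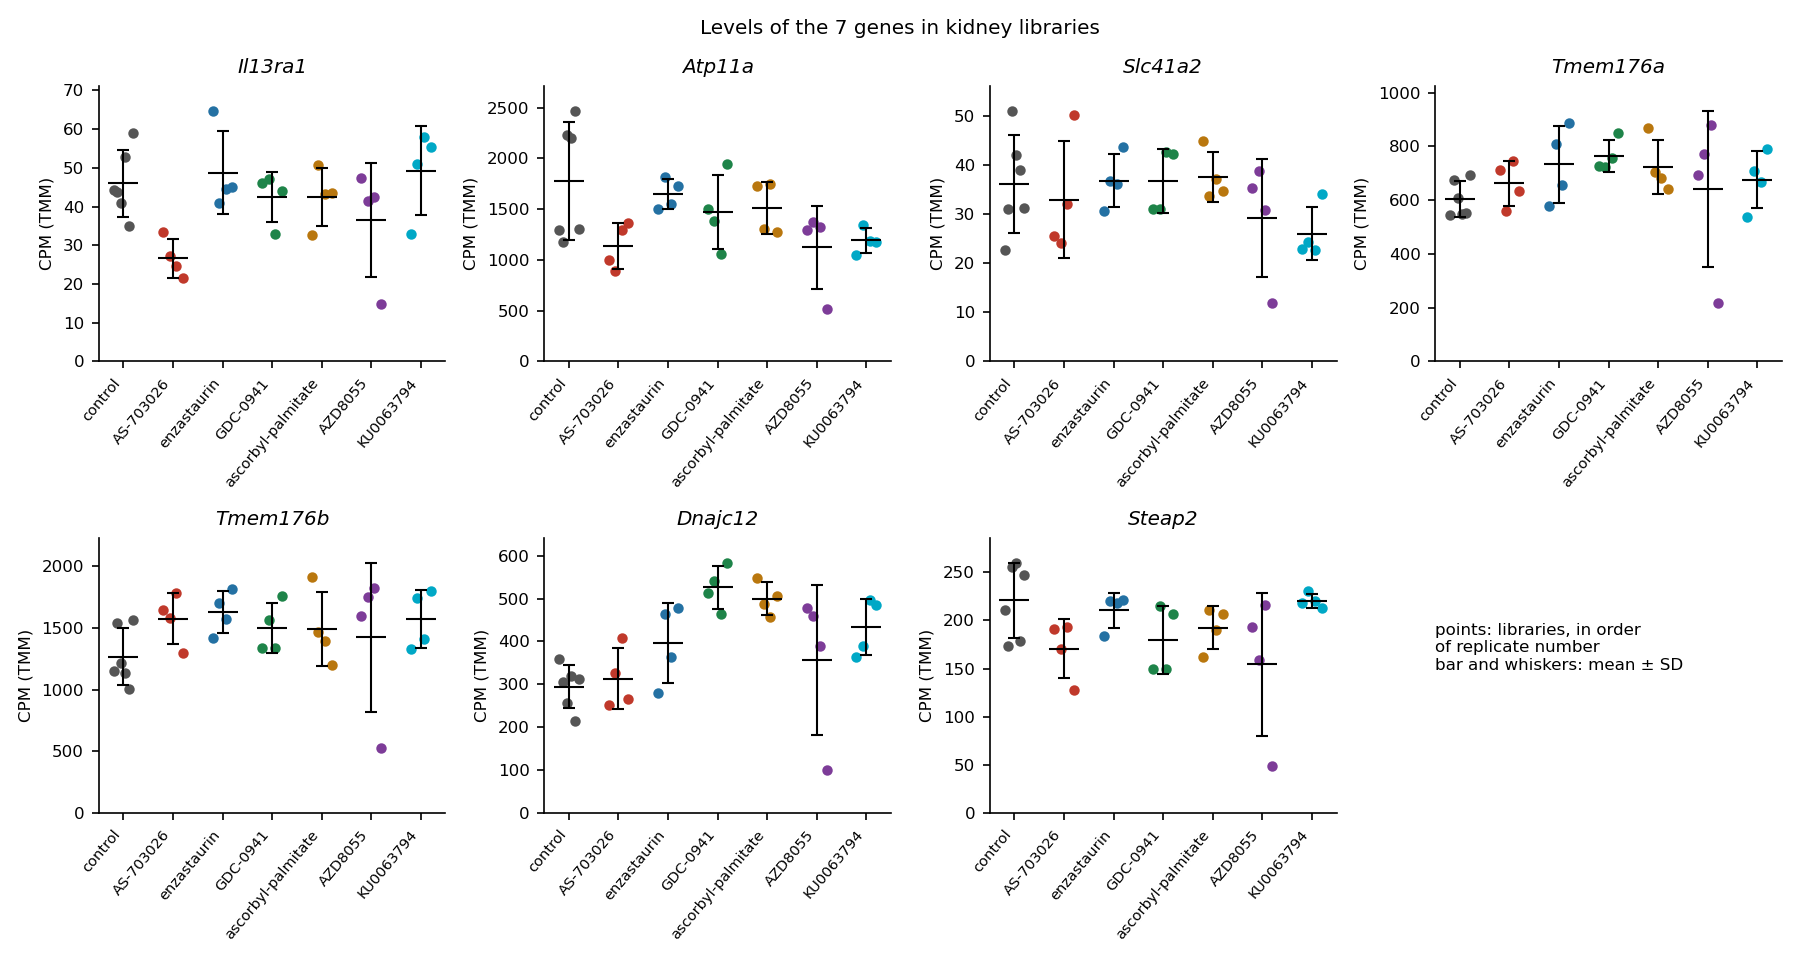
CPM (TMM within kidney) of each gene on the vertical axis by kidney group, with 1 point per library and the mean ± SD. AS-703026 is below all controls for Il13ra1, Dnajc12 is above all controls with GDC-0941, ascorbyl-palmitate and KU0063794, and AZD8055 replicate 4 is the lowest library of its group in every panel.

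**Figure D4:**
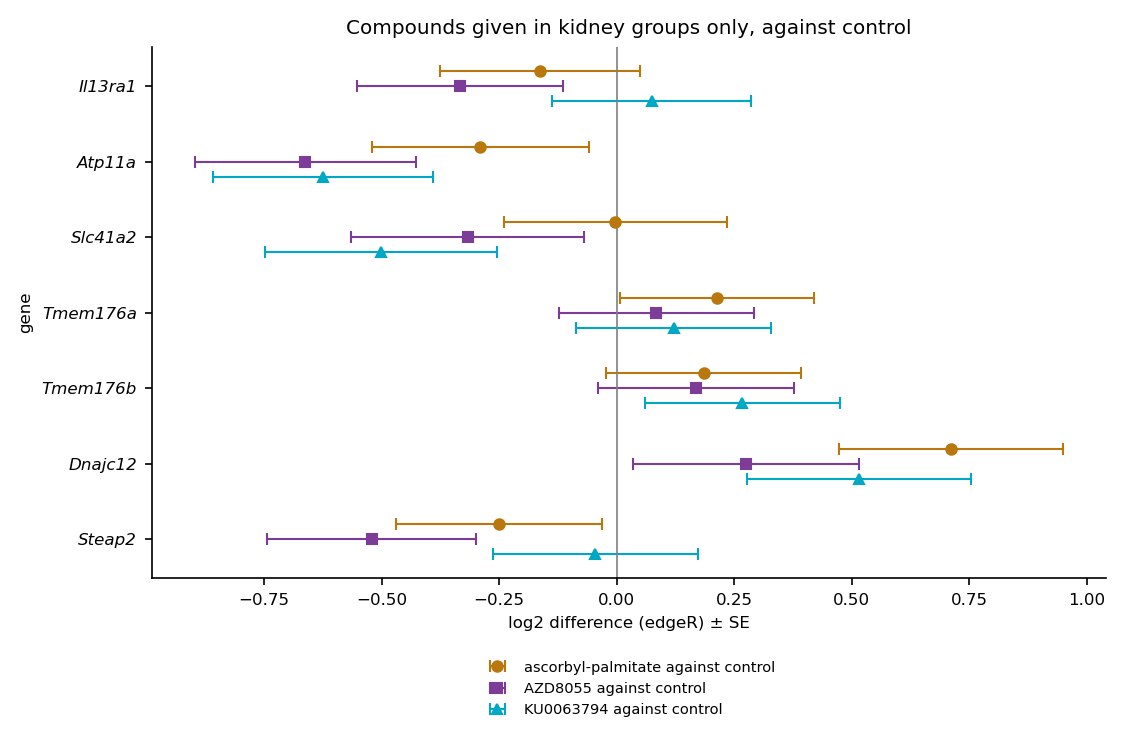
Fitted log2 differences (horizontal axis) ± SE from control in kidney for the 3 compounds whose libraries did not enter the choice of the genes. Values run from -0.66 (Atp11a, AZD8055) to 0.71 (Dnajc12, ascorbyl-palmitate), and none passed an adjusted p of 0.05.

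The neighbouring Tmem176 genes moved together in libraries that the choice did not use. Over the 18 kidney libraries of control, ascorbyl-palmitate, AZD8055 and KU0063794, with group means removed, log2 CPM of Tmem176a and Tmem176b correlated with Pearson's r of 0.973 and Spearman's rho of 0.932, each with a two-sided permutation p of 1e-05, the smallest that 100000 resamples can give. This was the only pair tested, so how many other pairs of genes correlate as closely in these libraries is not known. Without the 2 libraries farthest from the median of Tmem176a r was 0.935. Without AZD8055 replicate 4, where both genes were low at 219 and 528 CPM, r was 0.897 and rho 0.863.

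Their balance differed in the median between the tissues, with overlapping ranges. The ratio of Tmem176b to Tmem176a counts was 1.77 to 2.82 in the 30 kidney libraries (median 2.15) and 1.25 to 1.86 in the 12 liver libraries (median 1.47). In liver the AS-703026 libraries held ratios of 1.29 to 1.49, against 1.25 to 1.86 with enzastaurin and 1.41 to 1.61 with GDC-0941, so the ranges overlapped. A ratio within a library does not depend on its scaling.

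**Figure D5:**
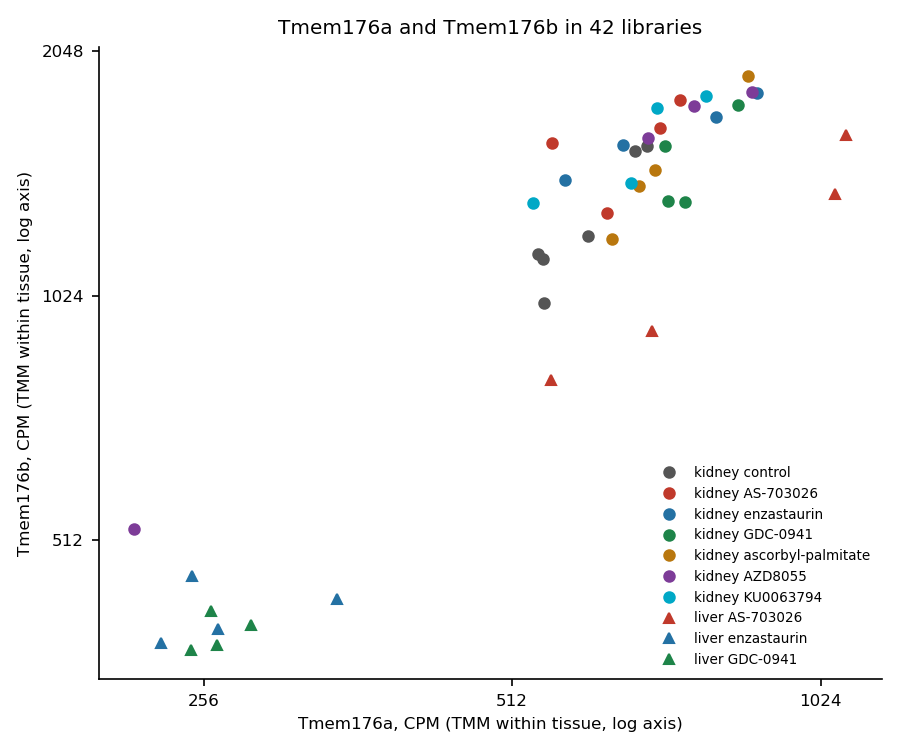
CPM of Tmem176b (vertical, log axis) against Tmem176a (horizontal, log axis) in 42 libraries, circles for kidney and triangles for liver, coloured by compound. The ratio of Tmem176b to Tmem176a tends to be higher in kidney (median 2.15 against 1.47), with overlapping ranges (1.77 to 2.82 against 1.25 to 1.86). AS-703026 liver libraries lie at 559 to 1085 CPM of Tmem176a and the other liver libraries at 233 to 346. The low kidney point is AZD8055 replicate 4.

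The partners of each member were followed in liver, AS-703026 against the mean of enzastaurin and GDC-0941, with edgeR's quasi-likelihood test over 9490 genes. Of all these genes, 2.91% were called higher and 4.69% in either direction. Of 12 measured genes of interleukin-4 and interleukin-13 receptor signalling other than Il13ra1, 3 rose and 0 fell, with a median log2 difference of 0.33 against 0.00 over all genes. Those that rose were Stat3 (1.15 ± 0.14, adjusted p = 3.00e-04), the transcription factor, its feedback inhibitor Socs3 (2.55 ± 0.33, adjusted p = 4.35e-04) and the kinase Jak3 (1.71 ± 0.35, adjusted p = 0.00975), whose call was lost without AS-703026 replicate 3 (edgeR adjusted p = 0.0671). Stat3 and Socs3 are known above all for interleukin-6 type signalling. The core of interleukin-4 and interleukin-13 receptor signalling did not pass: Il4ra stood at 11.5 to 20.9 CPM with AS-703026 and 15.6 to 24.5 with the other compounds (-0.13 ± 0.16, edgeR adjusted p = 0.756), and Stat6 had a difference of 0.29 ± 0.21 (adjusted p = 0.521). The ligand gene Il13 had no count in any liver library.

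Of 10 measured STEAP and iron or copper entry genes other than Steap2, 3 rose and 0 fell, with a median of 0.23. Steap4, a metalloreductase related to Steap2, stood at 50.2 to 329 CPM with AS-703026 and at 23.9 to 66.6 with the others (2.34 ± 0.36, edgeR adjusted p = 0.00153). Slc39a14, a zinc and iron importer, had a difference of 0.96 ± 0.15 (edgeR adjusted p = 0.00180), and Tfr2, transferrin receptor 2, of 0.37 ± 0.08 (edgeR adjusted p = 0.0197, lost in 5 of 18 alternatives, among them those without AS-703026 replicate 1, 3 or 4). The iron transporter gene Slc11a2 was the only gene of these lists called in the difference between tissues (1.02 ± 0.23, edgeR adjusted p = 0.0411), and it missed the threshold in 17 of 24 fits with 1 library left out, with an adjusted p of up to 0.157.

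In the other families few genes or none passed. Of 9 P4-ATPase genes and their partners measured in liver, 0 passed, and Tmem30a, the subunit that Atp11a needs, stood at 177 to 215 CPM with AS-703026 and 192 to 218 with the others (-0.03 ± 0.08). Of 12 magnesium transport genes 1 rose, Slc41a3 (0.95 ± 0.25, edgeR adjusted p = 0.0399), at 3.52 to 5.45 CPM against 1.51 to 3.27, and 0 fell. Of 22 DNAJC co-chaperone genes with Hspa8, 9 genes of aromatic amino acid hydroxylation and 2 CD20-like genes, 0 passed. Of 8 genes of ERK feedback, the transcripts that MEK activity sustains, 1 fell, Epha2 (-1.23 ± 0.33, edgeR adjusted p = 0.0481), and Dusp6 had a difference of -0.34 ± 0.26 (adjusted p = 0.545). The calls of Slc41a3 and Epha2 were lost in 14 and 13 of 18 alternatives. In AS-703026 kidney against control 2 genes of these lists passed, Tmem30b higher (1.92 ± 0.48, edgeR adjusted p = 0.0460) and the transferrin receptor gene Tfrc lower (-0.92 ± 0.22, adjusted p = 0.0406). That comparison had no gene called when control 4, control 5 or AS-703026 replicate 4 was left out.

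Other signals moved with the AS-703026 liver group, in the same comparison, where 2.91% of all genes were called higher. Of 8 neutrophil markers the 2 measured in the fit both rose, S100a8 (3.85 ± 0.48, edgeR adjusted p = 2.88e-04) and S100a9 (4.11 ± 0.31, adjusted p = 8.39e-06). The summed neutrophil level was 29.1 to 82.3 CPM with AS-703026, 2.47 to 10.4 with enzastaurin and 1.65 to 4.44 with GDC-0941. Of the other 6, Retnlg was seen in all 4 AS-703026 liver libraries, at 2.64 to 5.45 CPM against 0 to 2.85 in the other 8, Mmp8 and Cxcr2 had no count in 1 of the 4 AS-703026 libraries, Ngp in 2, Camp in 3 and Ltf in 4. Outside AS-703026, Camp had no count in any liver library and Ltf in all but 1. The summed neutrophil level was also higher in AS-703026 kidney, at 7.60 to 23.0 CPM against 0 to 6.91 in control. Every other kidney group held 6.57 CPM or less. None of the 8 markers was in the kidney fit (0 of 8), so none was tested there. In liver, all 4 measured erythroid markers rose, with summed levels of 4949 to 8492 CPM against 1367 to 4650 in the other 8 libraries. Without AS-703026 replicate 4 only Hbb-bs and Hbb-bt of these passed (edgeR adjusted p = 0.0820 for Hba-a1 and 0.0719 for Hba-a2), and Hba-a1 was also lost without replicate 3 (adjusted p = 0.0507). Summed macrophage markers lay at 563 to 814 CPM against 360.0 to 778, with 1 of 12 called, C1qb (0.64 ± 0.17, edgeR adjusted p = 0.0462, lost in 10 of 18 alternatives), and dendritic cell markers, which matter for the Tmem176 genes, at 154 to 261 CPM against 87.4 to 477 with 0 of 3 called. Summed stellate cell and fibroblast markers lay at 510.0 to 665 CPM against 384 to 529, with 1 of 8 called. That was Dcn, the matrix proteoglycan decorin, at 378 to 525 CPM against 279 to 371 (0.51 ± 0.10, edgeR adjusted p = 0.00577). Of 10 hepatocyte markers 2 rose, Fgb (1.36 ± 0.19, edgeR adjusted p = 8.31e-04) and Hpx (2.20 ± 0.27, adjusted p = 2.81e-04), both acute-phase genes. The part of neutrophil, erythroid, macrophage and stellate cell RNA in the members' values was not tested.

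The share of counts in 14 satellite-like gene models around Gm10800, repeat sequences counted as genes, also separated the groups. It was 0.857% to 1.77% in AS-703026 liver and 0.124% to 0.645% in the other 8 liver libraries, and 11 of 12 measured models rose. With the log2 of this share as a covariate the genes called in liver fell from 445 to 18. The members, chosen on these same libraries, had log2 differences of 1.33 for Il13ra1, 2.53 for Atp11a, 2.08 for Slc41a2, 1.44 for Tmem176a, 1.58 for Tmem176b, 2.52 for Dnajc12 and 1.39 for Steap2. Their SE was 0.26 to 0.78, against 0.15 to 0.40 without the covariate. Of the liver genes named from the lists, Socs3 (3.13, edgeR adjusted p = 0.0441) and S100a9 (3.82, adjusted p = 0.0308) passed with this covariate, and Stat3 (1.22, adjusted p = 0.114), Steap4 (2.90, adjusted p = 0.157), Slc39a14 (1.08, adjusted p = 0.164), Hpx (2.15, adjusted p = 0.149) and the others did not. Since the share did not overlap between AS-703026 and the other compounds, this fit cannot tell the share and the compound apart. The part of this share in the members' values was not tested.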

How the data were processed

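The values used were counts per gene deposited by the authors in 1 table of 43629 genes and 42 libraries. Tools named in the submitters' processing notes are STAR 2.5.2b, featureCounts 1.5, bcl2fastq 1.8.4 and Trimmomatic 0.32, with the mm10 genome. Strand setting and handling of molecular identifiers: not given in the sources used here. Symbols and coordinates came from GENCODE M21 for 42548 genes.

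Libraries were grouped by tissue and compound from their labels. Counts were filtered by filterByExpr, scaled by TMM and fitted with edgeR's quasi-likelihood model (edgeR 4.0.16, limma 3.58.1, R 4.3.3), with 12 liver libraries, 30 kidney libraries, or 24 libraries for the difference between tissues, and Benjamini-Hochberg adjustment at 0.05. The biological coefficient of variation was 0.191 in liver, 0.294 in kidney and 0.234 in the joint fit. SE values are the log2 difference divided by the square root of F. Alternatives were DESeq2 1.42.0, RLE scaling, limma voom, no filter, the groups compared alone, a replicate block, the satellite-like share as a covariate and leaving out each library. Levels are TMM-scaled CPM, and correlations used log2 CPM with a prior count of 2.

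The members, gene lists and motifs were chosen with earlier results of these data known. Beside the members, up to 3 genes of each family list with the smallest p among those past 0.05 in liver are named, and the 2 genes most like each member at a mean of 5 CPM or more; some genes that these rules take are not reported here. Kidney calls in lists, Il4ra, Stat6, Il13, Tmem30a, Dusp6, Saa2, Fgl1 and marker genes were named after their values were seen. Tested on simulated data, the liver fit called 77% of genes changed by 2-fold and 99% of those changed by 4-fold (9350 genes), the fit between tissues 35% and 72% (11114 genes) and ascorbyl-palmitate in kidney 52% and 84% (11376 genes). Apart from the added changes, each simulated gene had the same mean level in all libraries of a fit. The real differences in level between liver and kidney were therefore not modelled. The closest pair of libraries in a group, controls 1 and 4, differed by a chi-square of 3.67 per gene, so no library was counted as a repeat.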

Additional observations from a re-analysis of the deposited data

Results flagged for a closer look

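In groups of 4 to 10 libraries, a library was marked when its gap to the nearest other library was a large part of the range (Dixon's test at 95%), and 5 of 70 groups of the 7 genes were marked, where chance marks about 1 in 20. Il13ra1 stood at 64.7 CPM in enzastaurin kidney replicate 1, against 41.0 to 45.0 in the other 3. Steap2 stood at 183.3 CPM in the same library, against 218.0 to 221.5. Atp11a stood at 514 CPM in AZD8055 kidney replicate 4, against 1297 to 1369, and Tmem176b at 528 CPM there, against 1600.1 to 1821. Slc41a2 stood at 34.2 CPM in KU0063794 kidney replicate 4, against 22.8 to 24.3. The difference between tissues in the response to AS-703026 chose the genes and is not listed here again.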

How the results depend on the processing

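The direction of all 7 members in liver and in the difference between tissues held under every alternative run, with log2 differences of 1.17 to 3.45 in liver and 1.30 to 3.97 between tissues. The same libraries chose the genes for this difference, so a direction that holds in them is no further evidence for it. Each alternative value of a single member was set against its main value. In the tested kidney comparisons, the same meant an unchanged sign and an unchanged call at 0.05. Elsewhere it meant a shift smaller than the spread within groups. By these rules 809 values stayed the same, 3 passed 0.05 and 21, all in the tested comparisons, changed sign near 0. In AS-703026 kidney against control the sign was not checked, and there Slc41a2 ran from -0.37 to 0.03 and Dnajc12 from -0.04 to 0.21. Slc41a2 with ascorbyl-palmitate (main value -0.003) was 0.022 with DESeq2 and with RLE scaling, 0.052 without a filter, 0.0078 with limma voom, 0.027 with the satellite-like covariate, 0.026 with its groups alone and -0.058 to 0.119 with single libraries left out. With single libraries left out, Tmem176a with AZD8055 was -0.086 to 0.355 and Steap2 with KU0063794 -0.097 to 0.036.

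Counts of genes called moved more, and the cause was not tested. Without a filter liver had 876, the difference between tissues 367, AS-703026 kidney 296, ascorbyl-palmitate 155 and KU0063794 49. DESeq2 gave 146 between tissues, 270 for AS-703026 kidney, 156 for ascorbyl-palmitate and 64 for KU0063794. Limma voom gave 188 for AS-703026 kidney, 307 for ascorbyl-palmitate, 235 for AZD8055 and 342 for KU0063794. With the satellite-like covariate liver had 18, the difference between tissues 29, AS-703026 kidney 20, and ascorbyl-palmitate and KU0063794 0. With the groups compared alone AS-703026 kidney had 98, and ascorbyl-palmitate, AZD8055 and KU0063794 had 0. Liver and the difference between tissues have no such alternative. With single libraries left out the counts were 224 to 525 in liver, 25 to 99 between tissues (99 without GDC-0941 kidney replicate 3), 0 to 339 for AS-703026 kidney (0 without replicate 4, control 4 or control 5), 0 to 130 for ascorbyl-palmitate (130 without control 2), 25 to 842 for AZD8055 (25 without replicate 4) and 0 to 73 for KU0063794 (73 without control 2).

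Replicate numbers are shared between groups, and the labels do not say whether a number marks a shared animal or day. Deviations of same-numbered libraries from their group means had a median correlation of -0.022 in kidney and -0.029 in liver. Between tissues of a compound it was 0.014. Such a check over all genes cannot exclude a pairing, so the fits were also run with the number as a block. With a replicate block the counts were 345 in liver, 30 between tissues, 0 for AS-703026 kidney, 15 for ascorbyl-palmitate, 27 for AZD8055 and 11 for KU0063794, and no tested member changed its call. Depth limits Steap2 in liver most, at 4 to 46 counts a library.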
